A study of Olea europaea with 36 samples.

Results

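The 150 olive contigs described here are those whose microarray signal in Arbequina shoot tips most clearly exceeded that in active Picual shoot tips. They were chosen by a score of their measured intensities from 37449 contigs, the lowest of the 3 Arbequina arrays minus the highest of the 3 active Picual arrays on the log2 scale, of which the 150 largest were kept. Olive (Olea europaea) is a tree crop, and the study compared its varieties and seedlings for plant architecture with an array of 60-mer oligonucleotides. Shoot tips holding the shoot apical meristem were collected from adult field trees in 3 samples per group, giving 36 arrays in 12 groups. Chiquitita is a compact, weeping variety from the cross Picual x Arbequina. From the same cross came 4 pools of several seedlings each, chosen for short internodes (SILe), long internodes (LILe), small diameter of the trunk (SmaD) and large diameter of the trunk (LarD). From the cross Chiquitita x Arbosana came 3 further pools, chosen for a canopy like that of Chiquitita (ChiCa), for complex branching and for simple branching. The remaining groups were the varieties Arbosana, Arbequina and Picual, the last sampled both with active and with dormant meristems. A pool gives an average over its seedlings, so segregation among single seedlings was not measured. Each variety is 1 genotype, and the labels of 2 of the 3 SmaD arrays also carry a short internode feature.

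The shoot apical meristem is the group of dividing cells at the tip of a shoot that gives rise to leaves, stem and side branches, and its activity and dormancy shape the crown of a tree. Olive varieties are propagated as clones and carry much heterozygosity, so seedlings of a cross inherit different allele combinations from the same parents. A transcript that is high in a parent and low in the other can appear in the progeny near either parent or between them, and a pool mixes the alleles of its members. In an array, a contig is a transcript sequence assembled from reads, and its signal depends on the amount of that transcript and on how well the transcript of that variety matches the probe. Whether sequence differences between varieties changed hybridization was not tested. The files pair the contigs with no gene name, so the members are given by contig number and no function is stated for them.

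Several arrays stood apart from their group. The array labelled Chiquitita replicate 1 differed by over 8-fold from the other two Chiquitita arrays at 61 contigs. At all 61 of them the array labelled simple branching replicate 3 lay nearer to Chiquitita replicates 2 and 3, while the arrays labelled simple branching replicates 1 and 2 lay nearer to Chiquitita replicate 1 at 60 and 61 contigs. Over all contigs the array labelled simple branching replicate 3 correlated at r = 0.987 and 0.977 with Chiquitita replicates 2 and 3, and at 0.968 and 0.962 with simple branching replicates 1 and 2. These 2 arrays go against their labels, and counts that rest on them are given with and without them. SILe replicate 3 was over 8-fold from the other two SILe arrays at 2993 contigs, 7 of them members. CLV1, which in Arabidopsis encodes a receptor of the meristem, had intensities of 2482 to 14288 over the 36 arrays. Of the genes summed with CLV1 below, SVP had 37.4 to 4375, SYD had 20.6 in SILe replicate 3 to 7450.4, and TPR1 had 18.7 to 143. SYD and TPR1 thus reached the lowest 10% of the intensities in single arrays. Dormant Picual replicate 1 was over 8-fold from the other two dormant arrays at 235 contigs (6 members), and Arbosana replicate 1 from its group at 138 (3 members). Dormancy and genotype cannot be told apart in the comparisons with dormant Picual.

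The arrays of the choice are given first, as a description. The score of the members ran from 7.89 to 1.96 on the log2 scale, which is a gap of 236-fold to 3.88-fold between the nearest arrays of Arbequina and active Picual. The median ratio of the means of Arbequina over active Picual was 11.2-fold, with 52 members over 16-fold and 14 over 64-fold. At the edge of the choice, Contig_53654 had a lowest Arbequina intensity of 3335 and a highest active Picual intensity of 859, a score of 1.96, as had Contig_3226 with 170.2 and 43.6. Just outside, Contig_2814 scored 1.95 with 105 and 27.1, and Contig_44115 scored 1.94 with 231 and 60.3. When 1 array of each variety was left out of the choice in each of the 9 ways, 92 to 138 of the 150 contigs chosen were the same. In the arrays left out, 141 to 150 of each 150 were higher in Arbequina and 125 to 150 were at least 2-fold higher, against 4.47 to 13.1% of all contigs.

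The 10 largest scores belonged to contigs that were on in Arbequina and near the lowest intensities of the array in Picual. Their Arbequina intensities ran from 999 to 10007, and their active Picual intensities from 11.4 to 43.2. Contig_32787 had 8601, 5847 and 8101 in Arbequina, against 15.3, 21.2 and 24.7 in active Picual. Contig_2311 had 5274, 6554 and 6677 in Arbequina, against 22.2, 23.2 and 18.4 in active Picual. Contig_52085 had 10007, 9632 and 8775 in Arbequina, against 25.9, 17.4 and 43.2 in active Picual. All 7 seedling pools were on the Arbequina side of the midpoint at each of the 10 contigs, and dormant Picual was on the Picual side at each of them. At Contig_38225 dormant Picual had 212, 32.5 and 24.5, against 19.95, 39.7 and 19.5 in active Picual, so that its replicate 1 was above all active arrays. Folds against such low values depend on where normalization placed the lowest intensities, since the scanner background was not examined here.

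In the pools these leading contigs were above the Picual level and mostly below that of Arbequina. The median of the 12 arrays of the 4 pools of Picual x Arbequina ran from 28.3 to 96.7% of the Arbequina median and was under 50% at 6 of the 10. At Contig_2311 it was 1899, against 6554 in Arbequina, and at Contig_23400 it was 493, against 1741 in Arbequina. Contig_32787 had 4644 to 13724 (median 7830.3) over those 12 arrays and 2731, 6257 and 7632 in Chiquitita. In Arbosana it had 26.5, 22.8 and 16.98, and yet the 9 arrays of the Chiquitita x Arbosana pools had 3472 to 8153 (median 6138). It was thus high in every array of both crosses and low in Arbosana and Picual alone. Contig_36797 had 1185 to 2625 (median 1732) in the 12 pool arrays, 514, 1013 and 2276 in Chiquitita and 1682, 1769 and 1791 in Arbosana. Contig_66381 had 372 to 1864 (median 878) in the 12 pool arrays, 2201, 1816 and 1668 in Chiquitita and 2528, 2626 and 2938 in Arbosana. Contig_25355 had 363 to 2236 (median 976) in the 12 pool arrays, 1765, 1627 and 1821 in Chiquitita and 2203, 2708 and 1535 in Arbosana. For these 3 contigs Chiquitita and Arbosana were above dormant and active Picual in every array. The profiles of Contig_66381 and Contig_25355 were alike over the 30 arrays outside the choice (r = 0.96), as were those of Contig_36797 and Contig_31055 (r = 0.95), Contig_44061 and Contig_45196 (r = 0.94) and Contig_32787 and Contig_67221 (r = 0.94), descriptions over arrays that share varieties.

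**Figure D1:**
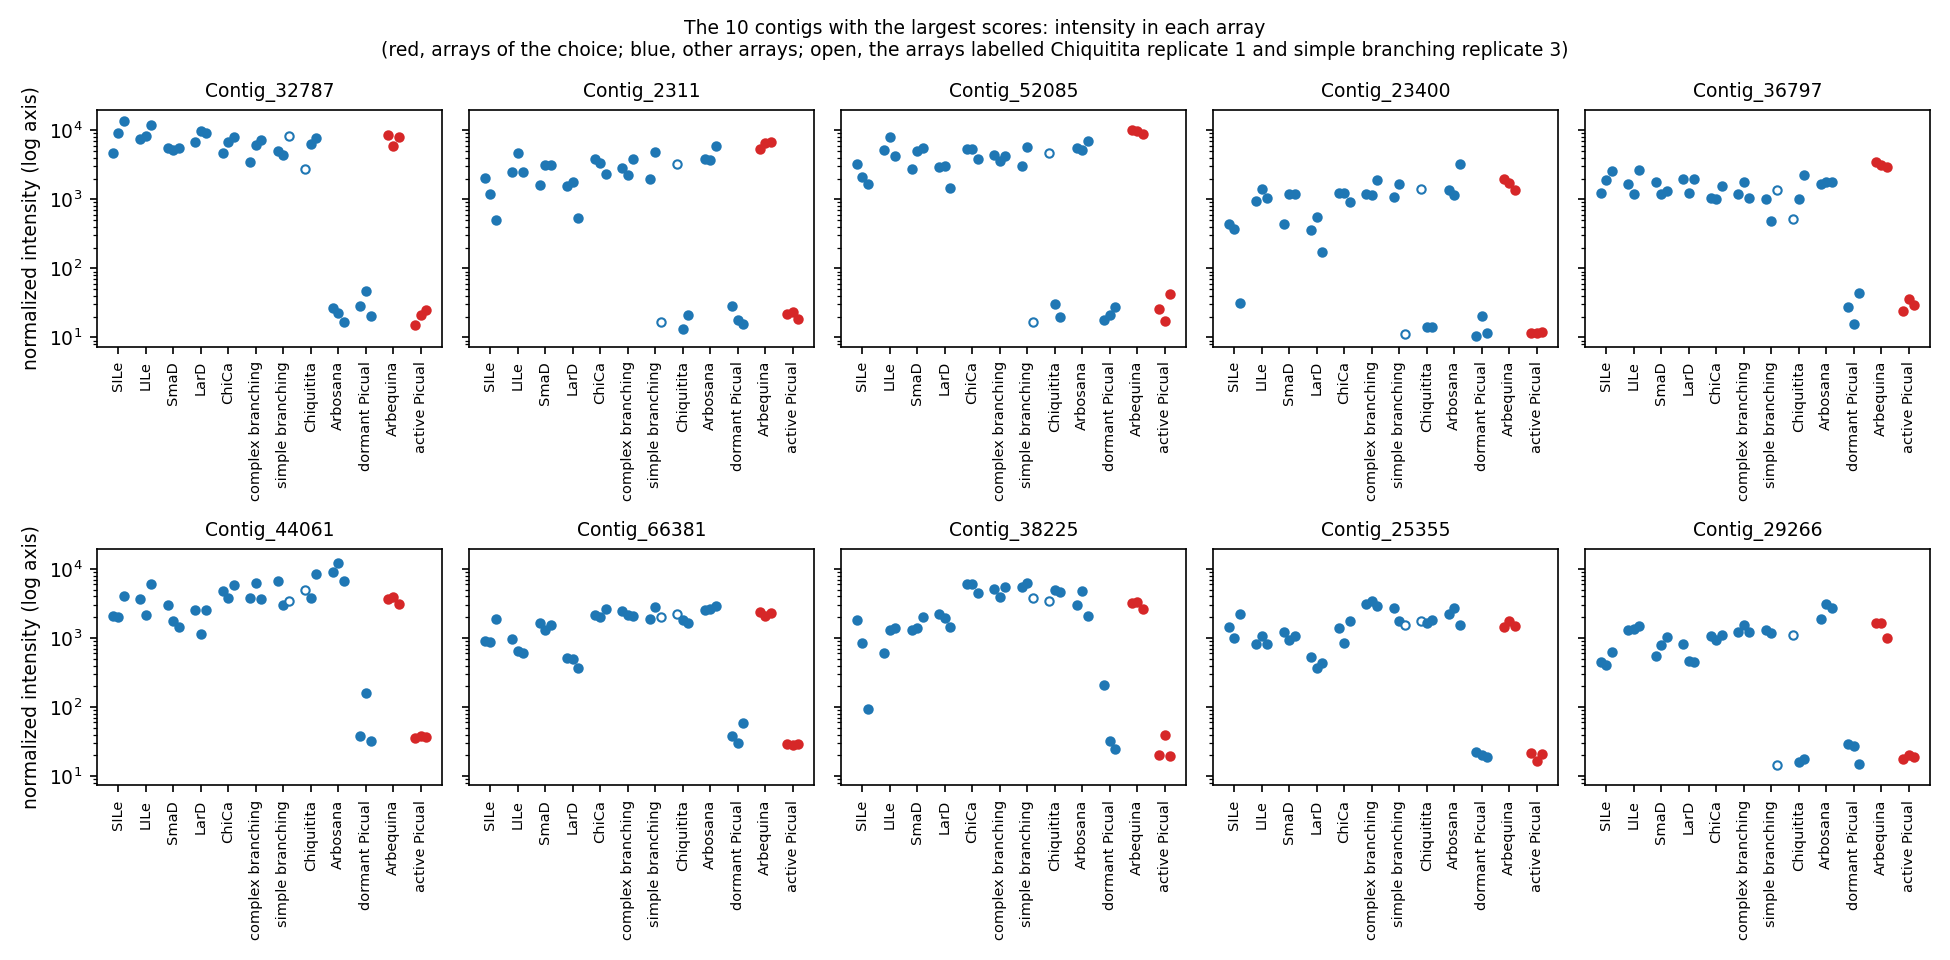
Intensity on a log axis (vertical) of the 10 contigs with the largest scores, 1 panel each, in the 3 arrays of each of the 12 groups (horizontal). Red points are the Arbequina and active Picual arrays used in the choice, blue points the other arrays, and open points the arrays labelled Chiquitita replicate 1 and simple branching replicate 3. Active Picual lies between 11.4 and 43.2 and dormant Picual near it, Contig_32787 is also low in Arbosana, and Contig_2311, Contig_52085, Contig_23400 and Contig_29266 are low in Chiquitita replicates 2 and 3.

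To follow all 150 members on 1 scale, the position of a group was taken as its distance from the active Picual mean divided by the distance of the Arbequina mean from it, in log2, so that active Picual is 0 and Arbequina 1. A member above 0.5 is said to be on the Arbequina side. The 4 pools of Picual x Arbequina had 114 (SILe), 104 (LILe), 107 (SmaD) and 107 (LarD) members on the Arbequina side, with median positions of 0.73, 0.73, 0.68 and 0.71. Chiquitita, from the same cross, had 84 members on the Arbequina side and a median position of 0.56. Without the array labelled Chiquitita replicate 1 the count was 85 and the median 0.65. In the second cross, ChiCa had 109, complex branching 116 and simple branching 94, the last being 90 without the array labelled replicate 3. Arbosana had 107 members on the Arbequina side and a median position of 0.81, although it played no part in the choice. Dormant Picual had 23, with a median of 0.08.

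Read per array as the median over the members, Arbosana lay at 0.93, 0.86 and 0.81, and Chiquitita at 0.68, 0.57 and 0.62. The means of 3 arrays followed the order Arbosana 0.86, complex branching 0.76, ChiCa 0.75, SILe 0.74, LarD 0.71, LILe 0.71, SmaD 0.70, simple branching 0.65 and Chiquitita 0.62. Every neighbouring pair in this order had overlapping arrays. Without both arrays that go against their labels, simple branching lay at 0.67 and 0.63 and Chiquitita at 0.57 and 0.62, so this pair did not overlap. Dormant Picual came last with a mean of 0.08 and did not overlap with Chiquitita, its arrays at 0.03, 0.15 and 0.06 overlapping with those of active Picual. The side depends on the scale, because the midpoint in log2 lies far below that of the intensities. With the midpoint of the intensities the share on the Arbequina side was 38.0% in Chiquitita against 56.0% in log2, and 43.3 to 54.0% in the 4 pools against 69.3 to 76.0%. The next 150 contigs by score had 44.0 to 63.3% on the Arbequina side in the 4 pools, 41.3% in Chiquitita and 30% in dormant Picual.

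**Figure D2:**
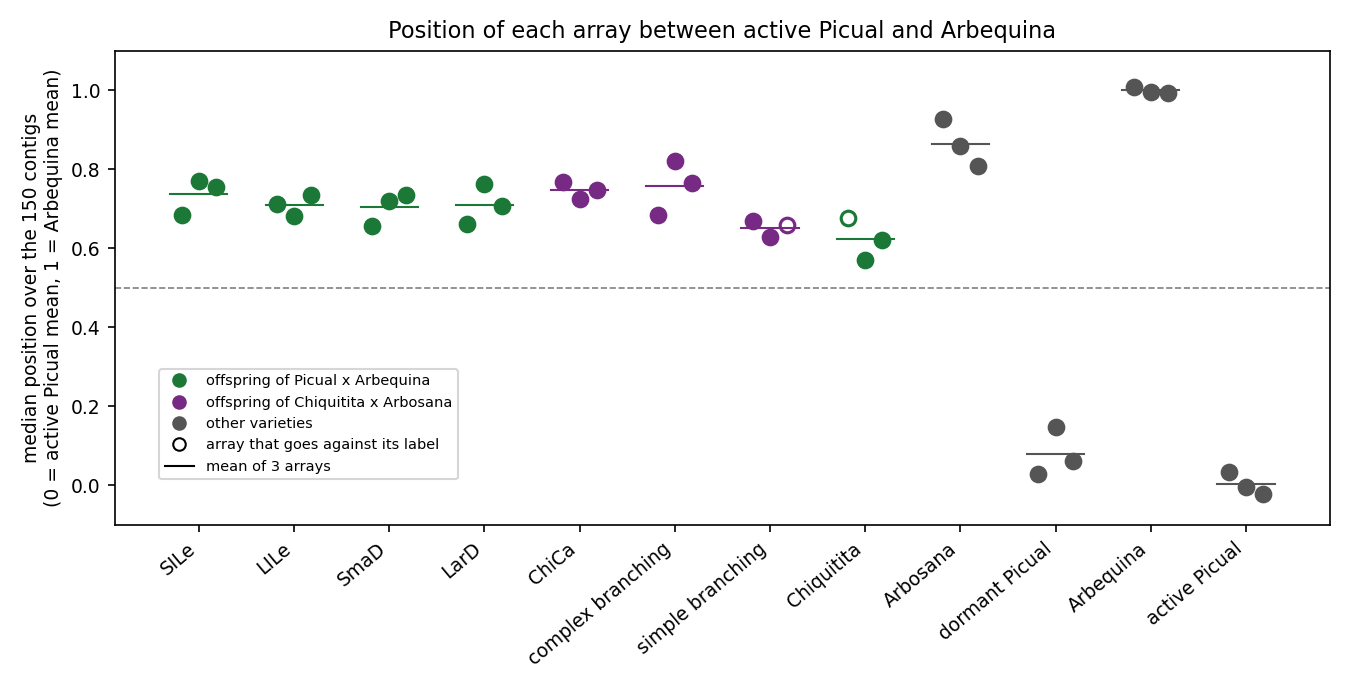
Median position over the 150 contigs (vertical; 0 is the active Picual mean and 1 the Arbequina mean, in log2) of each of the 36 arrays, by group (horizontal). Points are arrays, lines the mean of 3 arrays, open points the 2 arrays that go against their labels, and the dashed line the midpoint. The seedling pools, Chiquitita and Arbosana lie above 0.5, and dormant Picual lies near 0.

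Members were spread over the whole range in Chiquitita, where 37 had a position under 0.25, 58 lay between 0.25 and 0.75, and 55 had a position over 0.75. Without the array labelled replicate 1 the counts were 53, 37 and 60. Across the 9 groups other than dormant Picual, 39 members were on the Arbequina side in all of them (34 without both arrays), and 5 were on the Picual side in all (4 without both arrays). Among the 39 was Contig_44061, with 1157 to 6077 (median 2358) over the 12 arrays of the 4 pools of Picual x Arbequina, 4955, 3840.0 and 8499 in Chiquitita and 9069, 12317 and 6751 in Arbosana. Its values were 3639, 3944 and 3114 in Arbequina, 35.6, 38.2 and 36.5 in active Picual and 38.7, 162 and 31.8 in dormant Picual. With 3024 to 6776 (median 3844) in the 9 arrays of the second cross, every array outside Picual was above every Picual array. Among the 5 was Contig_15581, the member of highest score on the Picual side throughout, with 1019, 1087 and 1147 in Arbequina and 54.1, 36.9 and 15.1 in active Picual. It had 18.7 to 133 (median 36.6) in the 12 pool arrays and 47.2, 238 and 199 in Chiquitita. Without the array labelled Chiquitita replicate 1 its position in Chiquitita was 0.55, on the Arbequina side. Contig_15581 was named after its values were seen.

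**Figure D3:**
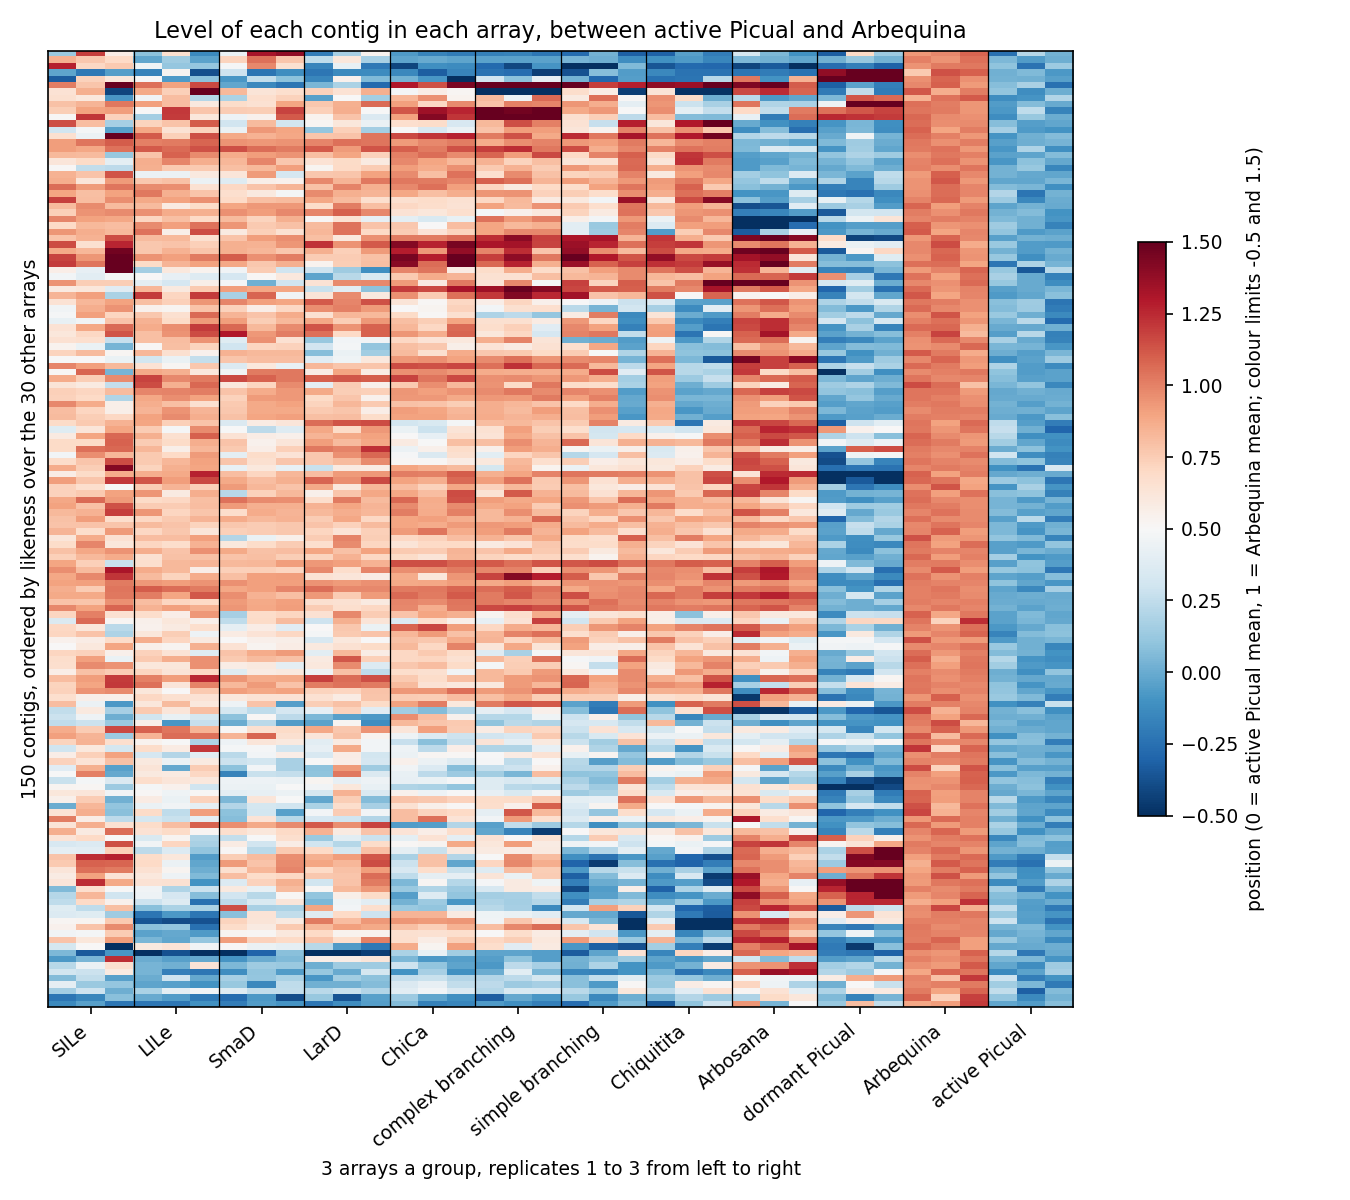
Position (colour; 0 is the active Picual mean and 1 the Arbequina mean, in log2, with colour limits of -0.5 and 1.5) of each of the 150 contigs (down, ordered by likeness over the 30 arrays outside the choice) in each of the 36 arrays (across, by group). The Arbequina and active Picual columns are uniform because they made the choice. In 39 contigs the mean of every group other than active and dormant Picual is on the red side. Single arrays can lie on the blue side there, as Arbosana replicate 1 does at Contig_29201 and Contig_7361.

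Some members lay outside the range between the means of active Picual and Arbequina, which are the parents of Chiquitita but not of Arbosana. In Chiquitita 17 members had a mean above that of Arbequina (20 without the array labelled replicate 1) and in Arbosana 46. The mean of dormant Picual lay below that of active Picual at 53. All 3 arrays lay above all Arbequina arrays at 4 members in Chiquitita and 13 in Arbosana. All dormant Picual arrays lay below all active Picual arrays at 5. For these counts no share over all contigs is given, so they do not show whether the members differ from other contigs in this. The highest position in Chiquitita was that of Contig_30193 at 1.44, followed by Contig_50489 at 1.27 and Contig_50750 at 1.27. Without the array labelled replicate 1 the highest were Contig_30193 at 1.46, Contig_65204 at 1.42 and Contig_50489 at 1.38. Contig_30193 had 1285, 1197 and 1841 in Chiquitita, 548, 692 and 482 in Arbequina and 80.7, 101 and 41.3 in active Picual. All 3 Chiquitita arrays were above all Arbequina arrays for this contig.

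The lowest positions in Chiquitita were Contig_22844 at -0.81, Contig_44706 at -0.31 and Contig_13435 at -0.25. Without the array labelled replicate 1 they were Contig_22844 at -1.42, Contig_13435 at -0.75 and Contig_50498 at -0.49, with Contig_44706 at -0.28. Contig_22844 had 1496, 12.7 and 16.5 in Chiquitita and 1113, 463 and 292 in active Picual, so that Chiquitita replicates 2 and 3 were below every active Picual array and the array labelled replicate 1 above them. In Arbosana the highest positions were Contig_5788 at 1.504, Contig_67015 at 1.45 and Contig_30193 at 1.43, and the lowest were Contig_66625 at -0.98, Contig_36930 at -0.46 and Contig_44706 at -0.45. Contig_66625 had 38.2, 28.9 and 49.2 in Arbosana, against 416, 380.3 and 297 in active Picual, so Arbosana was below both parents of the other cross. In ChiCa the highest were Contig_13365 at 1.43, Contig_49020 at 1.38 and Contig_50750 at 1.33, and the lowest Contig_44706 at -0.22, Contig_3305 at -0.21 and Contig_3226 at -0.19.

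The first comparison asked how far Chiquitita differed from its parent Picual in arrays that the choice did not use, those of dormant meristems. More members were called higher in Chiquitita than lower. The members were chosen for low levels in active Picual, the same variety, and only 23 were on the Arbequina side in dormant Picual. An excess of higher calls over dormant Picual is thus shaped by the choice and is no independent result. Of the 150, 80 were higher and 19 lower by at least 2-fold with an adjusted p under 0.05 (limma, Benjamini-Hochberg over all contigs), which together make 99 called. Among all 37449 contigs 20.1% were called, 12.9% higher and 7.18% lower. The median log2 difference was 1.68 over the members and 0.04 over all contigs. Without both arrays that go against their labels, 94 members were called, 74 higher and 20 lower, at a background of 19.9% (12.4% higher and 7.54% lower).

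Contig_32787 had 2731, 6257 and 7632 in Chiquitita, against 28.5, 47.4 and 20.5 in dormant Picual (log2 difference 7.39 ± 0.40 (SE), adjusted p = 8.8e-12). Contig_22885 had 5607, 4343 and 6113 in Chiquitita, against 49.5, 50.1 and 29.7 in dormant Picual (log2 difference 6.98 ± 0.22 (SE), adjusted p = 3.54e-16). Both were high in every Chiquitita array and near the lowest intensities in every dormant Picual array. Among the contigs lower in Chiquitita, Contig_3305 had 36.5, 30.4 and 30.7 in Chiquitita, against 760.3, 3670.2 and 4681 in dormant Picual (log2 difference -6.18 ± 0.56 (SE), adjusted p = 2.37e-08). Contig_5106 had 31.6, 25.9 and 37.1 in Chiquitita, against 111, 7882 and 7674 in dormant Picual (log2 difference -5.92 ± 1.15 (SE), adjusted p = 0.000474). For both, the dormant Picual arrays all lay above the Chiquitita arrays.

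The mean of the 4 pools of the same cross was set against dormant Picual in the same way, with the same limit from the choice. The pools were higher at 105 members and lower at 11, 116 called in all, with 14.9% of all contigs called (9.92% higher and 5.01% lower). The median log2 difference was 2.06 over the members and -0.03 over all contigs. The count was 116 also without both arrays, at a background of 14.8%. Contig_32787 had 4644 to 13724 (median 7830.3) in the 12 pool arrays, against 28.5, 47.4 and 20.5 in dormant Picual (log2 difference 7.99 ± 0.32 (SE), adjusted p = 1.52e-14). Contig_52085 had 1458 to 7908 (median 3179) in the pool arrays, against 18.1, 21.3 and 27.5 in dormant Picual (log2 difference 7.26 ± 1.22 (SE), adjusted p = 7.34e-05). No pool array came near the dormant Picual arrays for these contigs. Among the contigs lower in the pools, Contig_3305 had 22.99 to 140.1 (median 37.6) in the pool arrays, against 760.3, 3670.2 and 4681 in dormant Picual (log2 difference -5.80 ± 0.44 (SE), adjusted p = 8.37e-10). Contig_3226 had 25.9 to 122 (median 47.9) in the pool arrays, against 1692, 1099.7 and 1445 in dormant Picual (log2 difference -4.65 ± 0.44 (SE), adjusted p = 2.06e-08). The 12 pool arrays all lay below the dormant Picual arrays for both.

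The comparisons of Chiquitita and of the pools share the dormant Picual arrays. CDC45, needed to start DNA replication, had 352 to 1975 in the 4 pools and 1182 to 2206 in Chiquitita, against 402 to 688 in dormant Picual, the 352 being SILe replicate 3. The summed intensity of 4 genes (CLV1, SYD, TPR1 and SVP) ran from 6935 to 14559.7 in the pools and from 15226 to 16011 in Chiquitita. In dormant Picual it ran from 6809 to 13795. CLV1 made up most of the sum in Chiquitita, at 12129 to 12925. Between the varieties of the choice, the sum ran from 5288 to 7081 in Arbequina, against 11829 to 20754 in active Picual. SYD alone had 318, 560 and 7450 in the active Picual arrays. CDC45 had 753 to 854 in Arbequina, against 1509 to 2424 in active Picual. IRX1, a gene for cellulose of secondary walls, split the dormant Picual arrays, with 5925, 56.3 and 41.3. It had 64.8 to 2849 in the 4 pools and 359 to 446 in Chiquitita. In Arbequina it had 569 to 1234, against 202 to 778 in active Picual. The part of CDC45, of IRX1 or of the summed genes in these results, or in the choice of members, was not tested. Without dormant Picual replicate 1, 107 members were called in the pools (15.4% of all contigs) and 89 in Chiquitita (20%).

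In dormant Picual itself, every array was above every active Picual array at 35 members, beside 14.4% of all contigs. Active Picual made the choice, so this is a description. On the Arbequina side were 23 members, and 18 of these were among the 35, a count shaped by taking that side. The positions of Contig_3226, Contig_3305 and Contig_27753 were the highest, at 2.40, 1.96 and 1.74. Contig_3305 had 760.3, 3670.2 and 4681 in dormant Picual, 50.7, 55.2 and 41.98 in active Picual and 222, 468 and 429 in Arbequina. Contig_3226 had 1692, 1099.7 and 1445 in dormant Picual, 43.6, 43.2 and 39.7 in active Picual and 170.2, 204 and 170.3 in Arbequina. For both contigs dormant Picual was above Arbequina in all 3 arrays. Of the 23, 3 were on the Arbequina side in Chiquitita (1 without the array labelled replicate 1), 6 in LILe, 9 in ChiCa, 14 in SmaD, 14 in LarD, 15 in SILe and 18 in Arbosana. The lowest positions in dormant Picual were Contig_4344 at -0.81, Contig_59625 at -0.69 and Contig_55635 at -0.57.

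Chiquitita and the 4 pools come from the same cross, which allows a direct comparison of the variety with other seedlings of its parents. The pools were higher at 19 members and lower at 6, so 25 were called, with 2.19% of all contigs called (1.02% higher and 1.17% lower). The median log2 difference over the members was 0.14. Without both arrays that go against their labels 47 members were called, 34 higher and 13 lower, at a background of 2.91% (1.34% higher and 1.57% lower), and 24 of the 25 were among them. Leaving out Chiquitita replicate 1, 2 or 3 alone gave 42, 16 and 12 members called, at backgrounds of 2.49, 0.78 and 0.665%, without Contig_64417 in the last of these. The unadjusted p was under 0.05 at 65 members and at 18.2% of all contigs.

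Contig_5106 had 66.95 to 3207 (median 1241) in the 12 pool arrays, against 31.6, 25.9 and 37.1 in Chiquitita (log2 difference 5.01 ± 0.91 (SE), adjusted p = 0.00272). Contig_45719 had 3362 to 11736 (median 6539.5) in the pool arrays, against 1652, 603 and 588 in Chiquitita (log2 difference 2.97 ± 0.27 (SE), adjusted p = 3.08e-07). In both contigs every pool array was above every Chiquitita array. Lower in the pools were Contig_64417, with 26.1 to 149 (median 76.1) against 231, 302 and 356 in Chiquitita (log2 difference -2.05 ± 0.38 (SE), adjusted p = 0.00316), and Contig_54919, with 29.4 to 220.0 (median 104) against 281, 258 and 601 in Chiquitita (log2 difference -1.78 ± 0.30 (SE), adjusted p = 0.00112). Here every pool array was below every Chiquitita array. Of the 25 members called, 10 had no overlap between the pool arrays and the Chiquitita arrays. Over all contigs, called or not, the pool arrays were all above the Chiquitita arrays at 1.78% and all below at 3.36%.

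By side, 77 members were on the Arbequina side in all 4 pools, and 57 of them were there in Chiquitita too, leaving 20 on the Picual side in Chiquitita (56 and 21 without the array labelled replicate 1). A further 18 members were on the Arbequina side in none of the pools, and 15 of these were on the Picual side in Chiquitita as well (12 without that array). Among the means of the 4 pools the highest positions were Contig_67221 at 1.05, Contig_24875 at 1.03 and Contig_29201 at 1.01, and the lowest Contig_9717 at -0.35, Contig_10182 at -0.14 and Contig_60506 at -0.13. Contig_67221 had 3421 to 10502 (median 7252) in the pool arrays, 6129.7, 6811 and 4194 in Arbequina and 50.6, 164 and 44.02 in active Picual, so the pools reached the level of Arbequina. Contig_9717 had 35.2 to 249.8 (median 61.6) in the pool arrays, 3102, 2893 and 4437 in Arbequina and 360.1, 107 and 196 in active Picual, with the pool median below active Picual.

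**Figure D4:**
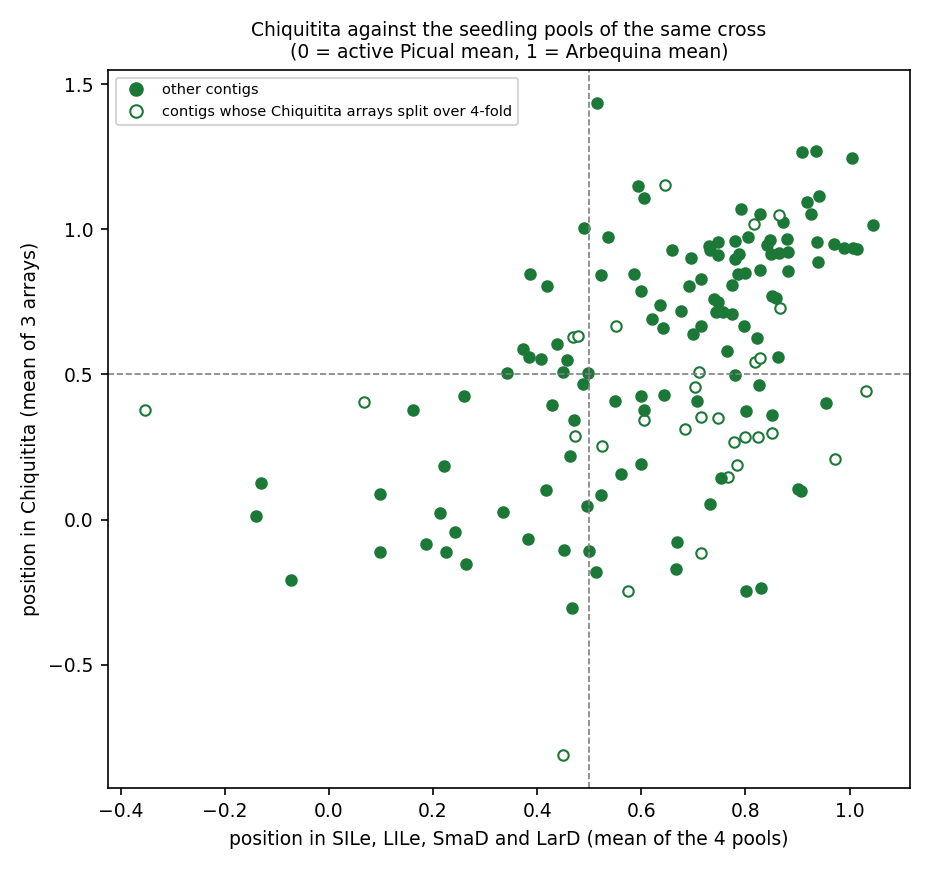
Position of each of the 150 contigs in Chiquitita (vertical, mean of 3 arrays) against the mean of the SILe, LILe, SmaD and LarD pools (horizontal); 0 is the active Picual mean and 1 the Arbequina mean. Dashed lines mark 0.5, and open points are the 30 contigs at which the array labelled Chiquitita replicate 1 was over 4-fold from the other two. Of the 77 contigs on the Arbequina side in every pool, 57 are also above 0.5 in Chiquitita.

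The array labelled Chiquitita replicate 1 was over 4-fold from both other Chiquitita arrays at 30 members. It was higher at 20, by a median of 14.7-fold, and lower at 10, by a median of 5.84-fold. At all 30 the array labelled simple branching replicate 3 departed from simple branching replicates 1 and 2 in the opposite direction. At 8 of the 20 both Chiquitita replicates 2 and 3 were in the lowest 10% of the intensities of their arrays. For these members the mean of the 3 Chiquitita arrays lies between the levels of its arrays.

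The clearest case was a group of 6 members chosen after their values were seen, Contig_2311 and the 5 members that correlated with it at r over 0.9 across the 30 arrays outside the choice. They were low in 9 arrays, those of active and dormant Picual, Chiquitita replicates 2 and 3 and the array labelled simple branching replicate 3, and higher in the other 27. Contig_2311 had 498 to 6677 (median 3099) in the 27 arrays and 13.3 to 28.1 in the 9. Contig_52085 had 1458 to 10007 (median 4698) in the 27 arrays and 16.99 to 43.2 in the 9. The 9 arrays and the 27 did not overlap for either. Contig_29266 had 401 to 3094 (median 1112) in the 27 arrays and 14.6 to 29.4 in the 9, Contig_60336 had 158 to 868 (median 429) in the 27 arrays and 16.8 to 22.7 in the 9, and Contig_24875 had 209 to 718 (median 455) in the 27 arrays and 21.1 to 52.8 in the 9. The narrowest separation was at Contig_23400, with 31.8 in SILe replicate 3 as the lowest of the 27 and 20.5 as the highest of the 9. By their labels, replicates 2 and 3 of Chiquitita had the Picual level at these contigs, while the 12 pool arrays of the same cross were all above it.

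The pools of opposite phenotype differed at few members. SILe and LILe, short against long internodes, differed at 2 members, 1 higher and 1 lower, with 0.0614% of all contigs called (0.0267% higher and 0.0347% lower). Contig_33415 had 228, 179.9 and 149 in SILe, against 20.5, 32.3 and 19.9 in LILe (log2 difference 2.95 ± 0.35 (SE), adjusted p = 8.27e-05). Contig_37070 had 64.98, 31.2 and 30.3 in SILe, against 175, 134 and 133 in LILe (log2 difference -1.88 ± 0.29 (SE), adjusted p = 0.00455). The SILe arrays were all above the LILe arrays for the first contig and all below them for the second. Without both arrays that go against their labels, which enter only through the shared spread, 7 members were called (0.0988% of all contigs), among them Contig_22844 (log2 difference 3.56 ± 0.34 (SE), adjusted p = 5.3e-06) and Contig_13435 (log2 difference 3.29 ± 0.41 (SE), adjusted p = 0.000287). The unadjusted p was under 0.05 at 37 members and at 7.97% of all contigs. Limma called 4 members without Chiquitita replicate 1 (0.0774% of all contigs) or simple branching replicate 3 (0.0614%) alone. It called 1, without Contig_37070, when LILe replicate 1 was left out (0.0214%).

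SmaD and LarD, small against large trunk diameter, differed at 3 members, all higher in SmaD, with 0.0561% of all contigs called (0.0294% higher and 0.0267% lower). Contig_54919 had 220.0, 206 and 208 in SmaD, against 46.4, 61.5 and 29.4 in LarD (log2 difference 2.27 ± 0.38 (SE), adjusted p = 0.00985). Contig_33415 had 158, 395 and 184 in SmaD, against 43.2, 118 and 35.1 in LarD (log2 difference 2.003 ± 0.35 (SE), adjusted p = 0.0141). Contig_66381 had 1631, 1323 and 1519.5 in SmaD, against 509, 494 and 372 in LarD (log2 difference 1.71 ± 0.28 (SE), adjusted p = 0.00882). The SmaD arrays were above the LarD arrays in all 3 contigs. Contig_33415 was thus higher in the pool of short internodes and in that of small trunk diameter, and 2 of the SmaD arrays carry the short internode label too. In the paper's measurements, however, most SmaD seedlings had longer mean internodes than every SILe and LarD seedling, and the rest had shorter ones. In Chiquitita this contig had 16.3, 18.2 and 14.4, in Arbosana 25.2, 22.8 and 20.5, in Arbequina 343, 296 and 392 and in active Picual 24.8, 18.3 and 22.7, so Chiquitita lay with Picual and Arbosana. Counts were small and moved with single arrays: limma called 0 members between SmaD and LarD without LarD replicate 3, where the unadjusted p was under 0.05 at 21 (4.1% of all contigs), and 1 member without LarD replicate 1 or without any 1 of the SmaD replicates. Fitted on their own arrays alone, limma called 0 members between SmaD and LarD and 0 between SILe and LILe, with an unadjusted p under 0.05 at 44 members and 18.4% of all contigs in the first comparison and at 34 members and 2.09% in the second. The methods' t-test, unadjusted and at least 2-fold, passed 6 members higher and 12 lower in SmaD, with 2.71% of all contigs, and after adjustment 0. In the reported fit the unadjusted p of SmaD over LarD was under 0.05 at 26 members and at 7.13% of all contigs.

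The 4 pool means of a member lay apart by a median of 1.15 in log2, or 2.22-fold, when SILe replicate 3 was left out, and 88 members exceeded 2-fold and 5 exceeded 8-fold. The widest were Contig_22844 at 4.73, Contig_13435 at 3.73 and Contig_30193 at 3.54. Contig_22844 had 1998, 2013 and 3642 in SILe, 217, 196 and 209 in LILe, 3304, 2641 and 2393 in SmaD and 7079.6, 4138 and 5654 in LarD. Contig_13435 had 2064, 4229 and 7209 in SILe, 561, 585 and 206 in LILe, 3127, 2382 and 3893 in SmaD and 4737, 6006 and 5509 in LarD. Both were lowest in LILe. The narrowest were Contig_45196 at 0.10, Contig_31055 at 0.11 and Contig_13081 at 0.14. Contig_45196 had 3166 to 4347 (median 3847) in the 12 pool arrays, against 7715, 9409 and 7872 in Arbequina and 302, 203 and 269 in active Picual, so all pools carried nearly the same level, on the Arbequina side.

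The second cross joined Chiquitita with Arbosana, and its comparisons concern growth habit. Between these varieties Chiquitita was higher at 20 members and lower at 41, 61 called in all, with 7.15% of all contigs called (4.41% higher and 2.74% lower). The median log2 difference was -0.50 over the members and 0.09 over all contigs. Without both arrays that go against their labels 62 were called, 21 higher and 41 lower, at a background of 6.19% (3.76% higher and 2.43% lower). Contig_32787 had 2731, 6257 and 7632 in Chiquitita, against 26.5, 22.8 and 16.98 in Arbosana (log2 difference 7.87 ± 0.40 (SE), adjusted p = 5.82e-12). Contig_43245 had 232, 1972 and 1499 in Chiquitita, against 11.1, 12.8 and 15.6 in Arbosana (log2 difference 6.08 ± 0.82 (SE), adjusted p = 3.99e-05). Both were near the lowest intensities in all Arbosana arrays, as in active Picual, where Contig_43245 had 12.1, 12.2 and 17.9. Lower in Chiquitita were Contig_22844, with 1496, 12.7 and 16.5 against 11761, 12279 and 6069 in Arbosana (log2 difference -7.14 ± 1.32 (SE), adjusted p = 0.0013), and Contig_39596, with 42.7, 85.6 and 33.6 against 4001, 2888 and 1763 in Arbosana (log2 difference -5.78 ± 0.93 (SE), adjusted p = 0.000319). The Arbosana arrays were all above the Chiquitita arrays for both. With the methods' t-test after Benjamini-Hochberg adjustment 0 members were called, with an unadjusted p under 0.05 at 59 members and 18.3% of all contigs. CDC45 had 1182 to 2206 in Chiquitita and 1512 to 2420.4 in ChiCa, against 407 to 701 in Arbosana. IRX1 had 359 to 446 in Chiquitita and 267 to 495 in ChiCa, against 1008 to 1388 in Arbosana. The part of either gene in the comparisons with Arbosana was not tested.

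Between ChiCa, the seedling pool with the canopy of Chiquitita, and Arbosana, 39 members were called, 21 higher and 18 lower in ChiCa, with 6.27% of all contigs called (4.02% higher and 2.25% lower), and 48 without both arrays at a background of 6.77%. The median log2 difference was -0.26 over the members. Contig_32787 had 4756, 6674 and 7949 in ChiCa, against 26.5, 22.8 and 16.98 in Arbosana (log2 difference 8.18 ± 0.40 (SE), adjusted p = 2.4e-12). Contig_43245 had 831, 1042 and 739 in ChiCa, against 11.1, 12.8 and 15.6 in Arbosana (log2 difference 6.05 ± 0.82 (SE), adjusted p = 5.92e-05). The pool had these contigs at the level of Chiquitita and Arbequina, and Arbosana at that of Picual. Lower in ChiCa were Contig_2601, with 34.3, 59.96 and 33.5 against 419, 738 and 670.3 in Arbosana (log2 difference -3.85 ± 0.37 (SE), adjusted p = 4.84e-07), and Contig_9501, with 14.7, 46.01 and 22.5 against 699, 325 and 180.1 in Arbosana (log2 difference -3.80 ± 0.64 (SE), adjusted p = 0.000652). All ChiCa arrays were below all Arbosana arrays for both.

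ChiCa and Chiquitita differed at 2 members, both higher in ChiCa, with 0.024% of all contigs called (0.016% higher and 0.00801% lower). Contig_52882 had 94.8, 70.95 and 42.7 in ChiCa, against 23.1, 11.5 and 15.0 in Chiquitita (log2 difference 2.06 ± 0.36 (SE), adjusted p = 0.0426). Contig_45719 had 3217, 2410.2 and 3920.4 in ChiCa, against 1652, 603 and 588 in Chiquitita (log2 difference 1.90 ± 0.34 (SE), adjusted p = 0.0481). The arrays of the groups did not overlap for either. This count rests on the array labelled Chiquitita replicate 1: without both arrays that go against their labels 30 members were called, 24 higher and 6 lower. The background was then 0.857% (0.478% higher and 0.379% lower). Without the array labelled Chiquitita replicate 1 alone 21 were called (0.414% of all contigs). The count was 6 without simple branching replicate 3 alone (0.0614%), 4 without SILe replicate 3 (0.032%) and 1 without ChiCa replicate 3 (0.0107%). Limma called 0 without any 1 of 4 other arrays of Chiquitita and ChiCa or any 1 of 15 arrays of the other groups, which enter through the shared spread, and the unadjusted p was then under 0.05 at 24 to 47 members and at 1.71 to 4.23% of all contigs. Fitted on the arrays of ChiCa and Chiquitita alone it also called 0, with 52 members and 5.96% of all contigs at that unadjusted p. Without both arrays the difference at Contig_22844 was 8.62 ± 0.38 (SE, adjusted p = 5.12e-12), with 5775, 5572 and 5756 in ChiCa, against 12.7 and 16.5 in Chiquitita replicates 2 and 3. The unadjusted p was under 0.05 at 46 members and at 4.13% of all contigs.

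Complex and simple branching differed at 2 members, 1 higher and 1 lower, with 0.0534% of all contigs called (0.0214% higher and 0.032% lower). Contig_12704 had 177, 226 and 117 in complex branching, against 38.3, 37.1 and 32.97 in simple branching (log2 difference 2.21 ± 0.41 (SE), adjusted p = 0.0325). Contig_44404 had 195, 147 and 87.3 in complex branching, against 521, 644 and 663 in simple branching (log2 difference -2.16 ± 0.34 (SE), adjusted p = 0.00476). The arrays did not overlap for either contig. The count was 1 without any 1 of the 6 arrays of these groups, Contig_44404 losing its call without complex branching replicate 3 and Contig_12704 without any other, and also without SmaD replicate 3, ChiCa replicate 1 or ChiCa replicate 2. The unadjusted p was under 0.05 at 35 members and at 4.19% of all contigs. Without both arrays 5 members were called (0.126% of all contigs) and Contig_12704 was not among them (log2 difference 2.15 ± 0.45 (SE), adjusted p = 0.0686).

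The pools of the second cross are given here by the side on which Arbosana and Chiquitita lay. Of the 57 members on the Arbequina side in both Arbosana and Chiquitita, 56 were there in ChiCa, 54 in complex branching and 52 in simple branching. Of the 50 on the Arbequina side in Arbosana and not in Chiquitita, the counts were 29, 37 and 18. Of the 27 there in Chiquitita and not in Arbosana, the counts were 20 in ChiCa, 22 in complex branching and 22 in simple branching. Of the 16 on the Picual side in both parents, 4, 3 and 2 were on the Arbequina side in these pools. Without both arrays that go against their labels the counts for ChiCa were 54 of 57, 31 of 50, 19 of 28 and 5 of 15. Arbosana had 7 members in the lowest 10% of the intensities in all 3 arrays. Their positions in ChiCa were 0.97 for Contig_32787, 1.01 for Contig_43245, 0.92 for Contig_37070, 0.79 for Contig_63848, 0.57 for Contig_65204, -0.02 for Contig_33415 and -0.22 for Contig_44706, so that the last 2 lay at the Picual end and the other 5 on the Arbequina side.

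**Figure D5:**
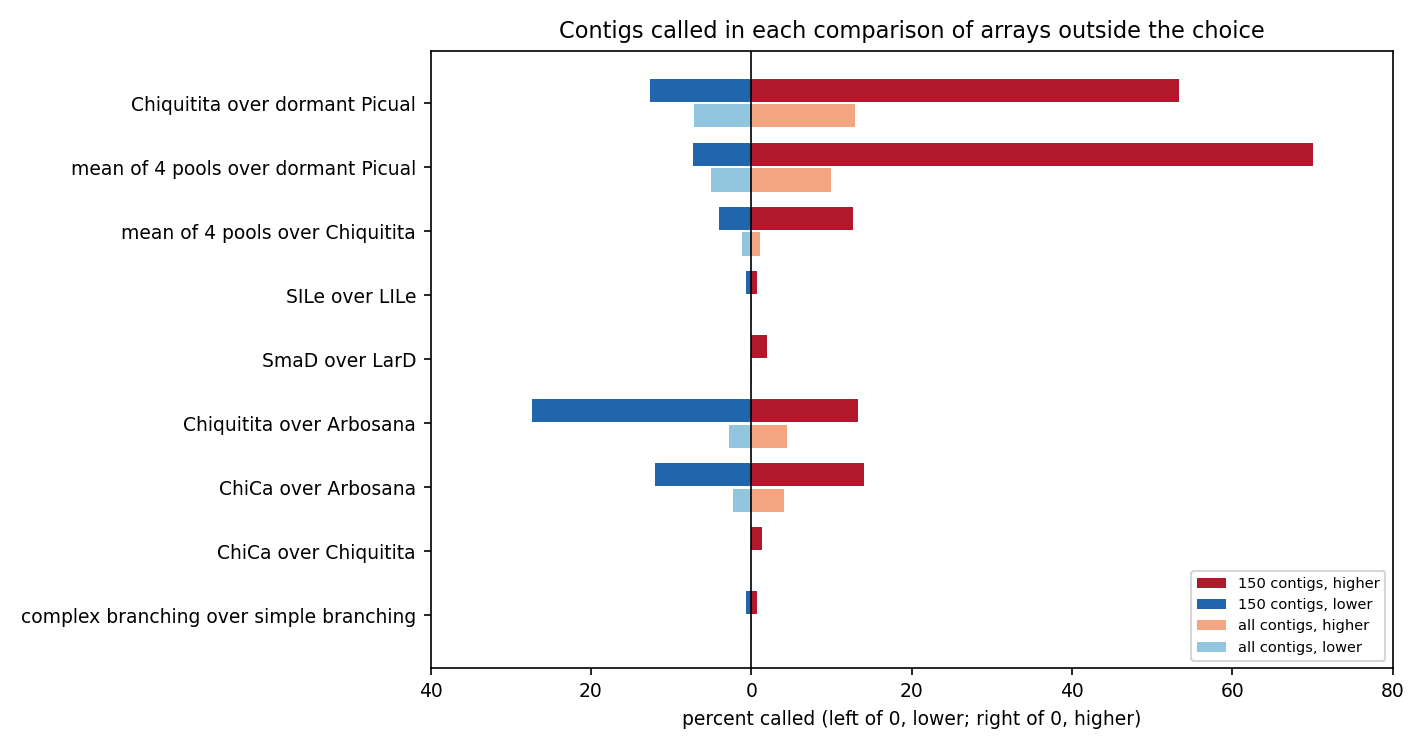
Percent of the 150 contigs (dark bars) and of all 37449 contigs (light bars) called in each of the 9 comparisons of arrays outside the choice (at least 2-fold with an adjusted p under 0.05); bars right of 0 are higher and left of 0 lower in the group named first. The widest bars are those of the pools and of Chiquitita over dormant Picual, with 105 and 80 contigs higher. Picual is the variety in whose active arrays the contigs were chosen as low. Fewer than 4 contigs were called in each of the 4 comparisons between SILe and LILe, SmaD and LarD, ChiCa and Chiquitita, and complex and simple branching.

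The 14 contigs that the study's paper names were set beside the members, not its full and much longer list of candidates for architecture. Of the 14, 0 were members. The members are 150 of 37449 contigs, so this count says nothing about the full list. The means of the 14 were higher in Arbequina than in active Picual at 2 and lower at 12. IRX1, which makes cellulose of secondary walls in Arabidopsis, was 2.55-fold higher in Arbequina. SVP, a repressor of flowering in Arabidopsis, was 31.4-fold lower in Arbequina, with 37.4 to 88.3 in Arbequina, and CDC45 and SCL30, a putative transcriptional regulator of the GRAS family, were 2.41-fold and 2.40-fold lower. The other 10 differed by less than 2-fold. In Chiquitita over Arbosana limma called 8 of the 14 higher and 2 lower at the adjusted p (7.15% of all contigs called). In ChiCa over Arbosana 6 were higher and 3 lower (6.27%), and in Chiquitita over dormant Picual 3 higher and 2 lower (20.1%). The methods' t-test, unadjusted and at least 2-fold, is less strict. It passed 13 of the 14 in Chiquitita over Arbosana (10.5% of all contigs), 14 in ChiCa over Arbosana (10.8%) and 4 in Chiquitita over dormant Picual (17.3%). From these same arrays the paper chose its RT-qPCR contigs for differing between Chiquitita and Arbosana and not between Chiquitita and ChiCa. Their calls over Arbosana and the lack of calls in ChiCa over Chiquitita are shaped by that choice and are no independent result. In SILe over LILe, SmaD over LarD, ChiCa over Chiquitita and complex over simple branching limma called 0 of the 14. The shares of all contigs called were 0.0614, 0.0561, 0.024 and 0.0534%. The unadjusted p was under 0.05 at 3, 2, 0 and 1 of them in these comparisons, and the methods' t-test (unadjusted and at least 2-fold) passed 0, 0, 0 and 1.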

How the data were processed

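Shoot tips of 12 groups, 3 arrays each, were hybridized to a NimbleGen array of 37449 contigs. The intensity values used here were normalized with RMA and deposited by the authors on a linear scale, 1 per contig and array, from 6.74 to 62499, and their log2 was taken here; the RMA version is not given in the sources used here. A second deposited table of 36 columns, whose headings could not be tied to single samples, was left out, so scanner background was not examined. The number of arrays limits the precision.

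Differences were fitted with limma 3.58.1 (R 4.3.3; lmFit and eBayes, no covariate) on the 30 arrays of the 10 groups that the choice of members did not use, for all 37449 contigs, with Benjamini-Hochberg adjustment over all contigs in each of 9 comparisons. Calls required an adjusted p under 0.05 together with a difference of at least 2-fold. P-values measure only the spread between shoot samples, and for a pool not that between seedlings. Nothing set against Arbequina or active Picual was tested. The script was checked on simulated data. Tables and plots were made with Python 3.11.15, numpy 2.4.6, pandas 2.3.3 and matplotlib 3.10.9.

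The members and lists were chosen with earlier results of these data known. Contigs were named by a rule: the 10 largest scores, the 2 on either side of the edge of the choice, for each comparison the 2 largest rises and falls among calls whose arrays did not overlap, the 3 highest and lowest positions in Chiquitita, the pools, dormant Picual, Arbosana and ChiCa, the 3 widest and narrowest spreads between pools, and the 14 contigs that the paper names. Any other contig was named after its values were seen. Alternatives were the groups compared alone, all 36 arrays, array weights, quantile normalization, a filter on the lowest 25% of contigs, the replicate number as a block, the methods' t-test, 100 or 300 members, a choice by means, the linear midpoint and leaving out each array. Leaving out both arrays that go against their labels was added after seeing the data. Of the contig names, 0 matched the table of olive genes provided, and no sequences are printed.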

Additional observations from a re-analysis of the deposited data

How the results depend on the processing

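Of 9 alternative settings, 5 moved the count of members called by more than 1.5 times for SILe over LILe. For ChiCa over Chiquitita and for complex over simple branching 6 did so each. In the other comparisons most alternatives kept within 1.5 times the reported count. Leaving out 1 array gave 0 in ChiCa over Chiquitita for 19 of 30 arrays. The settings that moved further are given next. Where not stated otherwise, the cause was not tested. The methods' t-test after Benjamini-Hochberg adjustment called 29 members in Chiquitita over dormant Picual (1.99% of all contigs), 9 in the pools over Chiquitita (0.879%) and 19 in ChiCa over Arbosana (1.26%). It called 0 (0% of all contigs) in each of Chiquitita over Arbosana, SILe over LILe, SmaD over LarD, ChiCa over Chiquitita and complex over simple branching. At an unadjusted p under 0.05 and at least 2-fold it called 54, 18, 18, 17 and 12 in the last 5 (10.5, 0.681, 2.71, 0.75 and 1.04% of all contigs), and 42 in the pools over Chiquitita (5.26%). Array weights gave 56 in the pools over Chiquitita (6.48% of all contigs), 35 in SmaD over LarD (9.53%), 63 in ChiCa over Arbosana (14.2%), 31 in ChiCa over Chiquitita (0.876%) and 4 in complex over simple branching (0.142%), so the share over all contigs moved too. Fitted on the compared groups alone, SILe over LILe, SmaD over LarD and ChiCa over Chiquitita had 0 (0.00534, 0.00267 and 0.00534% of all contigs) and complex over simple branching 1 (0.0134%). Without the lowest 25% of contigs, which left 108 members, SILe over LILe had 0 (0.0605%), and ChiCa over Chiquitita and complex over simple branching 1 each (0.032 and 0.0712%). Without both arrays that go against their labels the pools over Chiquitita had 47 (2.91%), SILe over LILe 7 (0.0988%), ChiCa over Chiquitita 30 (0.857%) and complex over simple branching 5 (0.126%).

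Leaving out 1 array at a time gave 82 to 101 members in Chiquitita over dormant Picual, 107 to 118 in the pools over dormant Picual, 12 to 42 in the pools over Chiquitita, 1 to 4 in SILe over LILe, 0 to 4 in SmaD over LarD, 47 to 66 in Chiquitita over Arbosana, 28 to 47 in ChiCa over Arbosana, 0 to 21 in ChiCa over Chiquitita and 1 to 3 in complex over simple branching. With the members chosen anew where the array was of Arbequina or active Picual, the share on the Arbequina side ran from 42.7 to 60% in Chiquitita, 60 to 78.7% in SILe, 61.3 to 74.7% in LILe, 53.3 to 74.7% in SmaD, 58.0 to 76.7% in LarD, 54.7 to 75.3% in ChiCa, 57.3 to 79.3% in complex branching, 49.3 to 64.7% in simple branching, 58.0 to 76.7% in Arbosana and 8.67 to 18.7% in dormant Picual. When 1 Arbequina and 1 active Picual array were left out together, contigs were chosen without them. The median log2 difference between the arrays left out then ran from 2.75 to 3.68.

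With the linear midpoint the shares were 38.0% in Chiquitita, 54.0% in SILe, 44.0% in LILe, 43.3% in SmaD, 44.0% in LarD, 49.3% in ChiCa, 53.3% in complex branching, 41.3% in simple branching and 58.0% in Arbosana, and the median positions 0.34, 0.49, 0.42, 0.42, 0.39, 0.45, 0.49, 0.34 and 0.62 in the same order. The 300 largest scores gave 48.7% in Chiquitita, 56.7% in LILe, 63.0% in SmaD, 61.3% in ChiCa, 64% in complex branching, 53.7% in simple branching, 67.3% in Arbosana and 22.7% in dormant Picual. The 100 largest gave 79.0% in LILe, 79.0% in ChiCa and 70% in simple branching, and a choice by means 50% in Chiquitita, 62.0% in ChiCa, 69.3% in complex branching and 56.7% in simple branching. Quantile normalization gave 60% in simple branching and a position of 0.13 in dormant Picual.

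For the named contigs, 28 differences were recomputed under 1081 settings in all; 990 kept the call, 91 lost it and 0 reversed. Every loss in the comparisons with dormant Picual and Arbosana was under the adjusted t-test. Replicate numbers did not pair the arrays: in 0 of 7 comparisons of 2 groups was every same-numbered r over 0.1 (range -0.44 to 0.49), and 7 of 21 pairs correlated best with their own number. With the replicate block 101 members were called in Chiquitita (20.7% of all contigs) and 116 in the pools (15.1%) over dormant Picual. There were 29 in the pools over Chiquitita (2.58%), 2 in SILe over LILe (0.0587%) and 3 in SmaD over LarD (0.0454%). Over Arbosana, 63 were called in Chiquitita (7.65%) and 41 in ChiCa (7.03%). ChiCa over Chiquitita (0.024%) and complex over simple branching (0.0587%) had 2 each, and Contig_45719 was not called in ChiCa over Chiquitita.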

Other observations

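The array labelled Arbosana replicate 1 was over 8-fold from the other two Arbosana arrays at 138 contigs, 135 of them lower, and 3 of these were members. Contig_29201 had 9.81, 1118 and 981 in Arbosana, Contig_7361 had 15.4, 1868 and 1108 and Contig_12128 had 15.02, 540.0 and 452. Without this array 54 members were called in Chiquitita over Arbosana (5.89% of all contigs) and 30 in ChiCa over Arbosana (5.76%). Contig_44706 was among the 3 lowest positions in ChiCa, Chiquitita and Arbosana alike, with 19.2, 35.5 and 34.2 in ChiCa, 21.9, 25.5 and 25.01 in Chiquitita and 19.4, 22.6 and 13.5 in Arbosana. In the pools of Picual x Arbequina it had 558, 178 and 200.1 in SILe, 109, 55.4 and 55.3 in LILe, 116, 308 and 163 in SmaD and 32.05, 102 and 28.9 in LarD, against 291, 333 and 340.4 in Arbequina and 53.8, 27.7 and 57.8 in active Picual.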
